A study of Mus musculus with 64 samples.

Results

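Matrix metalloproteinases (MMPs), their tissue inhibitors (TIMPs), the secreted ADAMTS proteases and the ADAMTS-like proteins were followed through the right ventricle (RV) and left ventricle (LV) of mice that lost the desmosome gene Pkp2 in heart muscle, with and without replacement of the gene. The members were all rows of the count table whose symbol names an MMP, a TIMP, an ADAMTS or an ADAMTS-like gene, which gave 50 genes of the 39152 named. Of these, 31 had enough counts to be tested in all 27 comparisons, 40 were tested in at least 1, and 10 in none. Mmp1b had no count in any library.

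RNA-seq libraries were made from the RV and the LV of 32 C57BL6 mice, giving 64 libraries in 5 groups, to ask how far the cardiac transcriptome returned toward wild type after gene replacement. All animals carried floxed Pkp2 alleles and all received tamoxifen. Pkp2-cKO mice carried in addition an αMyHC-CreER(T2) transgene, a tamoxifen-inducible Cre driven by a cardiomyocyte promoter, so that non-muscle cells of the heart kept the gene. WT mice (n = 9) were littermates without Cre and cKO mice (n = 4) had Cre, and both received HBSS as vehicle. The other cKO mice received AAV9:mPkp2, an adeno-associated virus carrying mouse Pkp2, in a single retro-orbital dose. AAV_3E13 mice (n = 8) had 3e+13 and AAV_1E14 mice (n = 5) had 1e+14 vector genomes per kg, 1 week before tamoxifen by the labels, and AAV_1E14_2.5wk mice (n = 6) had 1e+14 vector genomes per kg at 2.5 weeks after it. The study's text places the earlier doses before tamoxifen in some passages and after it in others, so that timing rests on the labels. By the study's methods the vehicle-treated cKO hearts were collected much sooner after induction than the WT and vector-treated hearts. Between cKO and WT, genotype and time since induction therefore cannot be told apart. Between the vector groups and cKO, which share the genotype, vector treatment and time since induction cannot be told apart.

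MMPs are zinc proteases that cut collagens, elastin, proteoglycans and many other proteins outside the cell. They are made as inactive precursors and are opened by furin, plasmin or other MMPs, and the TIMPs block the active enzymes. ADAMTS proteases trim procollagens, cut proteoglycans such as versican and aggrecan, or act on fibrillin and cartilage oligomeric matrix protein, and the ADAMTS-like proteins share their binding domains but have no protease domain. In the heart these genes are expressed by fibroblasts, vessel cells, leukocytes and muscle cells, and their balance is known to change in fibrosis and after injury.

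Many of the inducible MMP genes lie in 1 cluster on mouse chromosome 9, and their promoters are a textbook case of control through an AP-1 site, TGAGTCA, close to the start of transcription. The 120 bases before the start are shown for the 3 cluster genes Mmp3, Mmp12 and Mmp13, each of which was called in a comparison of cKO with WT below. The sequences are those of RefSeq (table on GRCm38.p6), they were placed on GRCm39 by exact match at chr9:7445702-7445821, chr9:7347254-7347373 and chr9:7272394-7272513 (all + strand), and none of these bases lies in an annotated exon. The Mmp12 window belongs to the second of 2 annotated starts, which was chosen because its window held more of the motifs. The first start had no match to either motif. The annotated gene start lies at -2993 bases relative to the start shown. Capitals mark TGAGTCA on either strand (TGACTCA is the same motif on the other strand) and the TATA motif TATAAA, which overlap nowhere in these windows.
Mmp3: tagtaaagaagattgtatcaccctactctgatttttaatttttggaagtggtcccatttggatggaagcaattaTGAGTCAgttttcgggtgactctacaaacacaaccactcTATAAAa
Mmp12: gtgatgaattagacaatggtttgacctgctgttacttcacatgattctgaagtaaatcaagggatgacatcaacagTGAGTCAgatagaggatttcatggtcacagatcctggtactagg
Mmp13: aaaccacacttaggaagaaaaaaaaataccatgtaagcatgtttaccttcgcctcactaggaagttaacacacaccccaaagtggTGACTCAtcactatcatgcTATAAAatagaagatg

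In the 250 bases before the start, searched on both strands, TGAGTCA occurred in 6 of the 35 members with a promoter in the table, or 17.1%, against 5.16% of all 27025 genes. Those 6 were Mmp3, Mmp7, Mmp10, Mmp12, Mmp13 and Mmp1b, all from MMP families and none a TIMP or ADAMTS gene. TATAAA occurred in 9 members (25.7%) against 14.3% of all genes, and both motifs together in 5 members (14.3%) against 0.862%. A match of letters is a description of these windows and was not tied to binding of a factor here.

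The libraries held 7962690 to 14554600 estimated counts, of which 5341792 to 10238813 per library remained after mitochondrially encoded genes (16.6 to 40.2%) were left out. Values are given as CPM, the counts of a gene relative to its library's total scaled by TMM factors, or as TPM, which also takes account of transcript length, where genes are compared with each other. Single animals are named by their group and the number in their label. Pkp2 was at 149 ± 20.5 CPM (SD, n = 9) in WT RV, 60.5 ± 28.5 in cKO RV (n = 4), 296 ± 81.1 in AAV_3E13 RV (n = 8), 1302 ± 544 in AAV_1E14 RV (n = 5) and 1927 ± 987 in AAV_1E14_2.5wk RV (n = 6), in the order the labels imply, and the LV had the same order. The RV library of animal WT_5819 held 661 CPM of atrial marker genes against a WT RV median of 27.2. The RV and LV libraries of animal AAV_1E14_2.5wk_5814 disagreed in the X- and Y-linked genes Xist and Ddx3y (263 and 99.5 CPM in RV, 3064 and 0 CPM in LV), and that RV library was the 1 of 64 with both genes at 10 CPM or more. Counts below that rest on the RV library of the former animal or on either library of the latter are also given without that animal. In a relative measure of effective transcript length, on the log2 scale, the AAV_1E14_2.5wk RV libraries (-0.0253 to -0.0107) lay below all WT RV (0.0220 to 0.0767), cKO RV (0.0138 to 0.0296) and AAV_1E14 RV libraries (-0.00206 to 0.0699), and the WT LV libraries (-0.0815 to 0.0193) lay below all WT RV libraries. Where groups do not overlap in this measure, a fit with it as a covariate cannot divide its part from that of the group. Counts of such fits are given below as values only, and its part in the differences was not tested.

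In WT hearts 1 inhibitor, Timp3, stood far above all other members. Timp3, a TIMP that is held in the matrix, had the highest level of all members at 408 TPM in RV and 344 TPM in LV. Timp2, which also takes part in the activation of pro-MMP2, came next at 61.0 and 59.1 TPM. The ADAMTS-like gene Adamtsl5 was the next in both ventricles at 41.2 and 44.9 TPM. In RV it was followed by Adamts9 (37.1 TPM), the constitutive gelatinase Mmp2 (32.3 TPM), Adamts1 (31.0 TPM) and Mmp15 (25.2 TPM), and in LV by Mmp15 (30.8 TPM), Mmp2 (29.4 TPM), Adamts1 (29.1 TPM) and Adamts9 (28.9 TPM), whose LV levels lay close together. Of the TIMP transcripts in WT RV, Timp3 made up 84.2 ± 1.71% (SD, n = 9), Timp2 12.7 ± 1.74%, the heart-enriched inhibitor Timp4 2.71 ± 1.18%, and the inducible inhibitor Timp1 0.365 ± 0.206%. The summed MMP level was 103 ± 17.1 TPM in WT RV and 97.8 ± 14.5 TPM in WT LV, or 0.220 ± 0.0556 and 0.249 ± 0.0880 of the summed TIMP level. Without Timp3 the TIMPs summed to 75.9 ± 16.2 TPM in WT RV and 70.7 ± 8.26 TPM in WT LV, below the MMP sums.

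**Figure D1:**
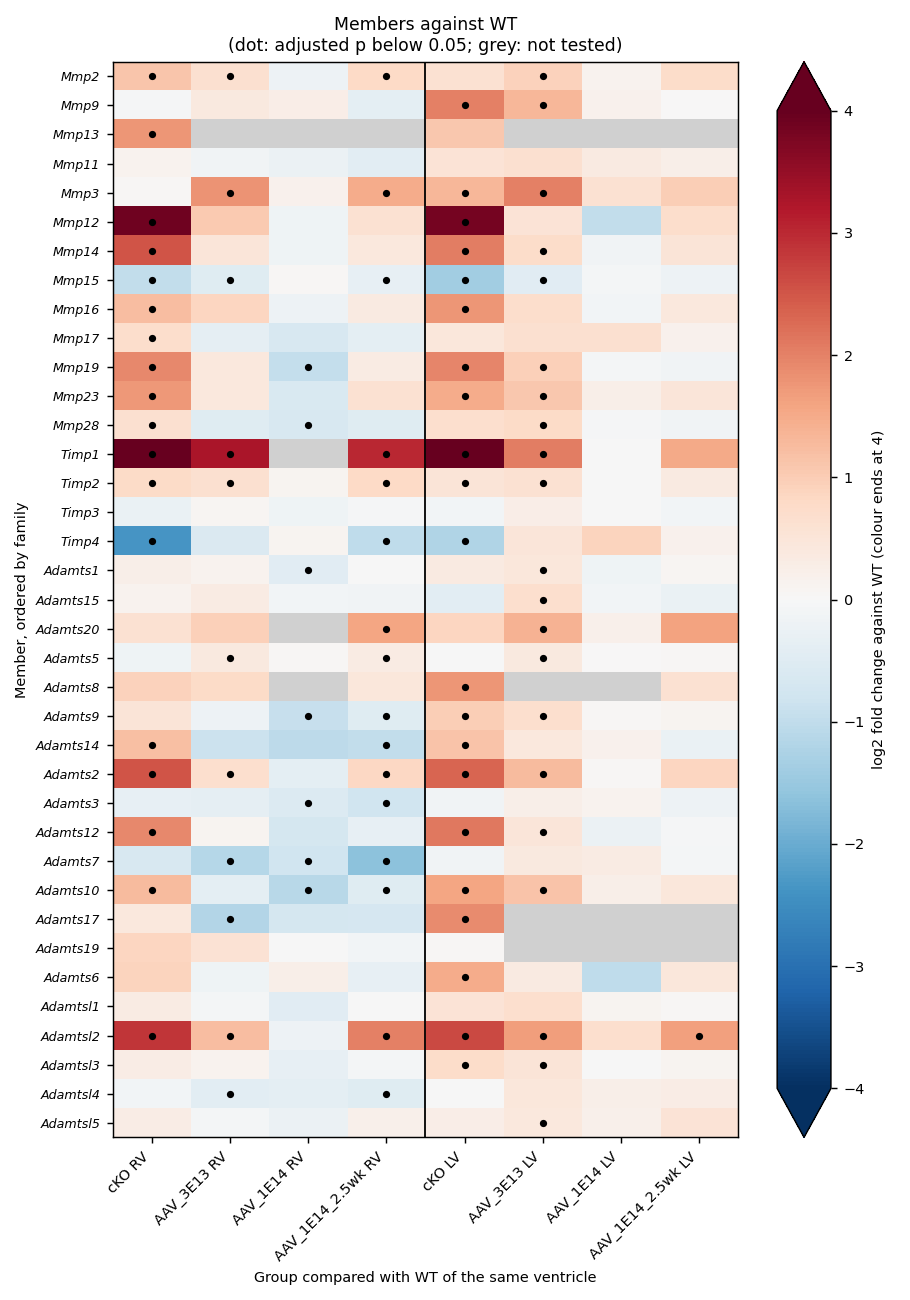
Log2 fold change against WT of the same ventricle (colour, ending at 4) of the members tested against WT, in rows ordered by family, for each group and ventricle in columns, where a dot marks an adjusted p below 0.05 and grey a member not tested. The cKO columns hold 18 called members in RV and 21 in LV, and the AAV_1E14 columns 7 in RV and 0 in LV.

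Loss of Pkp2 went with higher levels of most of the called members in both ventricles. In RV, 37 of the 50 members could be tested between cKO and WT, and 16 were higher (43.2%) and 2 lower (5.41%) at a Benjamini-Hochberg adjusted p below 0.05 in edgeR's quasi-likelihood test. Over all 14150 genes tested, 22% were called higher and 20.3% lower, or 42.3% in all. In LV, 19 of 37 were higher and 2 lower, against 23.6% and 23% of all genes (46.6% in all). The unequal-variance test on log2(TPM + 1), the study's own kind of test, called 10 members in RV in place of 18 and 3 in LV in place of 21. Without WT_5819 the RV count was 17. The median log2 fold change of the members tested was 0.65 in RV, beside 0.02 over all genes, and 0.86 in LV, beside 0.05. Timp4 and Mmp15 were the 2 members lower in both ventricles. A member near the count minimum could enter the test through the group in which it was high, so these shares do not stand for all 50.

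Timp1 rose more than any other member. It was at 0.182 to 1.44 CPM in WT RV (median 0.944), and at 40.6, 12.2, 36.7 and 25.7 CPM in RV of animals cKO_2006, cKO_2052, cKO_3213 and cKO_3217. Every cKO RV library was above every WT RV library, and the log2 fold change was 5.03 (SE 0.34, with adjusted p = 1.52e-07). In LV, WT ranged from 0.517 to 3.65 CPM (median 1.29), and the same cKO animals had 67.8, 5.41, 106 and 13.5 CPM. The groups again did not overlap, although the cKO hearts themselves differed widely, and the log2 fold change was 4.97 (SE 0.60, with adjusted p = 1.39e-05), or 4.22 without cKO_3213. The unequal-variance test gave an adjusted p of 0.151 for Timp1 in LV.

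Timp4 went the other way. WT RV libraries held 20.4 to 82.1 CPM (median 29.5) and the cKO RV libraries 6.54, 12.1, 4.01 and 8.52 CPM, so that the groups were separate and the log2 fold change was -2.35 (SE 0.41, with adjusted p = 0.000358). In LV, 5.05, 18.6, 3.90 and 21.0 CPM in cKO overlapped with 13.2 to 42.8 CPM in WT. The LV log2 fold change of -1.21 (SE 0.45, with adjusted p = 0.036) was lost without cKO_2006 (adjusted p = 0.106) or cKO_3213 (adjusted p = 0.0973). Timp2 rose by 0.77 in RV (SE 0.23, with adjusted p = 0.013) and 0.51 in LV (SE 0.13, with adjusted p = 0.00605). Its RV call rested on cKO_3217, at 357 CPM beside 165, 178 and 123 CPM in the other cKO hearts, and without it the adjusted p was 0.126. Timp3 did not pass the test in RV (log2 fold change -0.26), with cKO values of 545, 942, 423 and 1509 CPM around a WT range of 692 to 1318 CPM. As shares of TIMP transcripts in cKO RV, Timp1 stood at 13.1 ± 9.20% and Timp3 at 65.4 ± 10.1% (SD, n = 4).

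**Figure D2:**
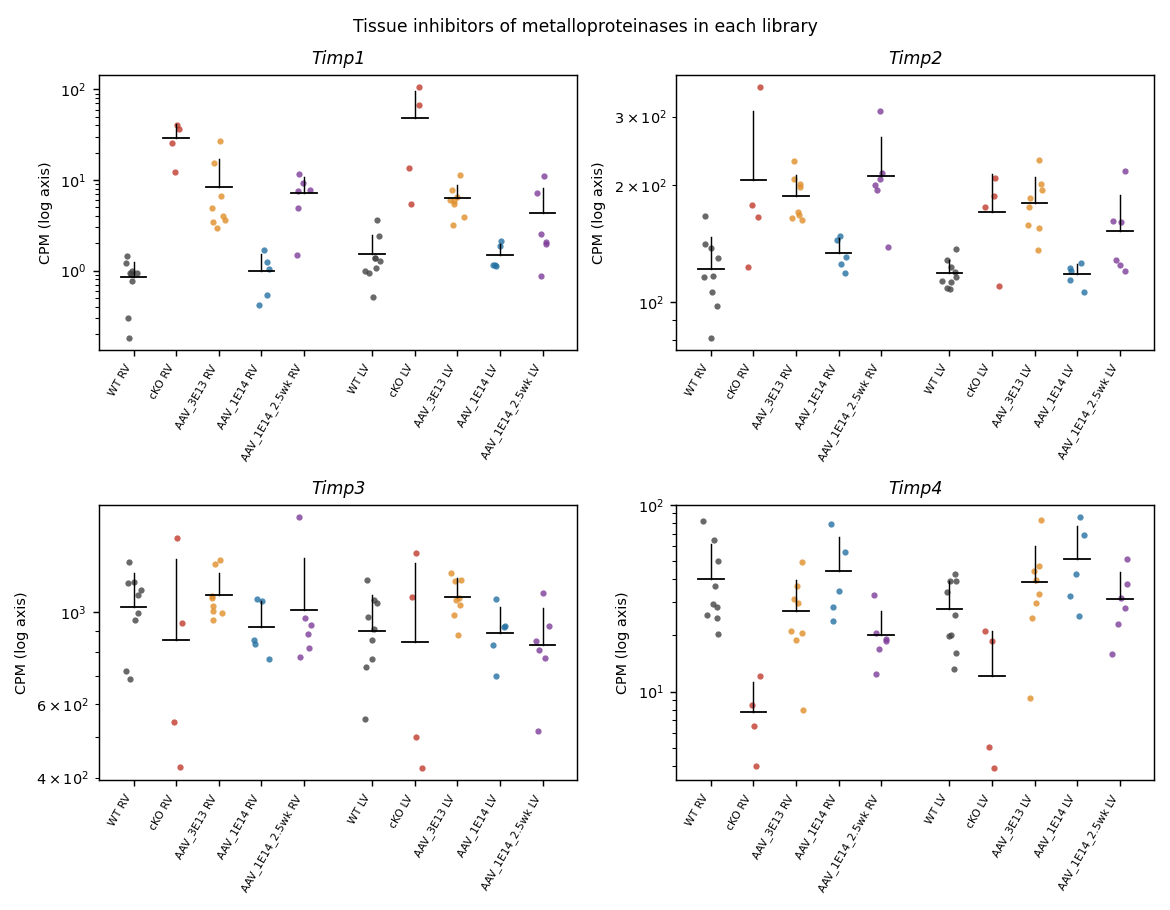
CPM of Timp1 to Timp4 in each library (points, log axis) by group and ventricle, where the horizontal bar is the mean and the line above it 1 SD. The cKO libraries sit above all WT libraries for Timp1 and, in RV, below all WT libraries for Timp4, and the 5 AAV_1E14 RV libraries of Timp1 lie between 0.420 and 1.69 CPM.

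Among the MMPs, the membrane-type MMPs moved in both directions. Mmp14, the membrane-bound collagenase that activates pro-MMP2, was at 8.27 to 22.2 CPM in WT RV (median 13.4) and at 109, 52.9, 70.6 and 102 CPM in cKO RV. The groups were far apart, with a log2 fold change of 2.53 (SE 0.24, with adjusted p = 1.91e-06) in RV and 2.04 (SE 0.25, with adjusted p = 1.51e-05) in LV. Mmp15, a close relative of Mmp14, was at 54.4 to 85.5 CPM in WT RV (median 81.9) and at 33.8, 36.4, 53.9 and 30.7 CPM in cKO RV. It fell by 0.98 in RV (SE 0.16, with adjusted p = 0.000205) and by 1.38 in LV (SE 0.22, with adjusted p = 0.00014) on the log2 scale. Mmp16 also rose in both ventricles, by 1.22 in RV and 1.77 in LV, and Mmp17, anchored to the membrane by a lipid, rose in RV by 0.71.

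Mmp12, the macrophage elastase, was at 0.727 to 4.52 CPM in WT RV (median 1.76) and at 71.8, 14.4, 24.6 and 13.5 CPM in cKO RV. The RV groups did not overlap, and the log2 fold change was 3.88 (SE 0.45, with adjusted p = 1.24e-05). In LV the cKO values were 76.0, 3.79, 51.0 and 5.41 CPM against 0.962 to 4.31 CPM in WT, so that cKO_2052 lay within the WT range and cKO_3217 just above it. The LV log2 fold change was 3.83 (SE 0.60, with adjusted p = 0.000111). Mmp13, collagenase 3, was at 3.04, 2.10, 3.34 and 2.69 CPM in cKO RV against 0.131 to 1.75 CPM in WT RV (log2 fold change 1.76, SE 0.47, with adjusted p = 0.00673), and its counts were too low for a test between any vector group and WT in RV. Mmp19 rose by 1.92 in RV (SE 0.32, with adjusted p = 0.00025) and 1.97 in LV, and Mmp23 by 1.73 (SE 0.27, with adjusted p = 0.000115) and 1.47. The LV values of Mmp19 were 4.11 to 24.5 CPM in cKO and 1.36 to 4.94 CPM in WT, so the ranges overlapped. The gelatinase Mmp2 rose by 1.10 in RV (SE 0.27, with adjusted p = 0.00442), and its LV values of 34.5, 137, 27.4 and 133 CPM lay on both sides of the WT median of 51.8 CPM. Mmp3, stromelysin 1, had a log2 fold change of 0.06 in RV that was not called and of 1.34 in LV (adjusted p = 0.0496). Its cKO LV values of 1.84 to 25.8 CPM lay on both sides of the WT LV range of 4.01 to 7.33 CPM. The hearts cKO_2052 and cKO_3217 were below every WT LV library, and cKO_2006 and cKO_3213 above. The summed MMP level was 224 ± 75.8 TPM in cKO RV and 219 ± 85.9 TPM in cKO LV (SD, n = 4), and the ratio to summed TIMPs ranged from 0.378 to 0.824 in cKO RV against 0.173 to 0.347 in WT RV, and from 0.271 to 0.702 in cKO LV against 0.185 to 0.459 in WT LV, with overlap.

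**Figure D3:**
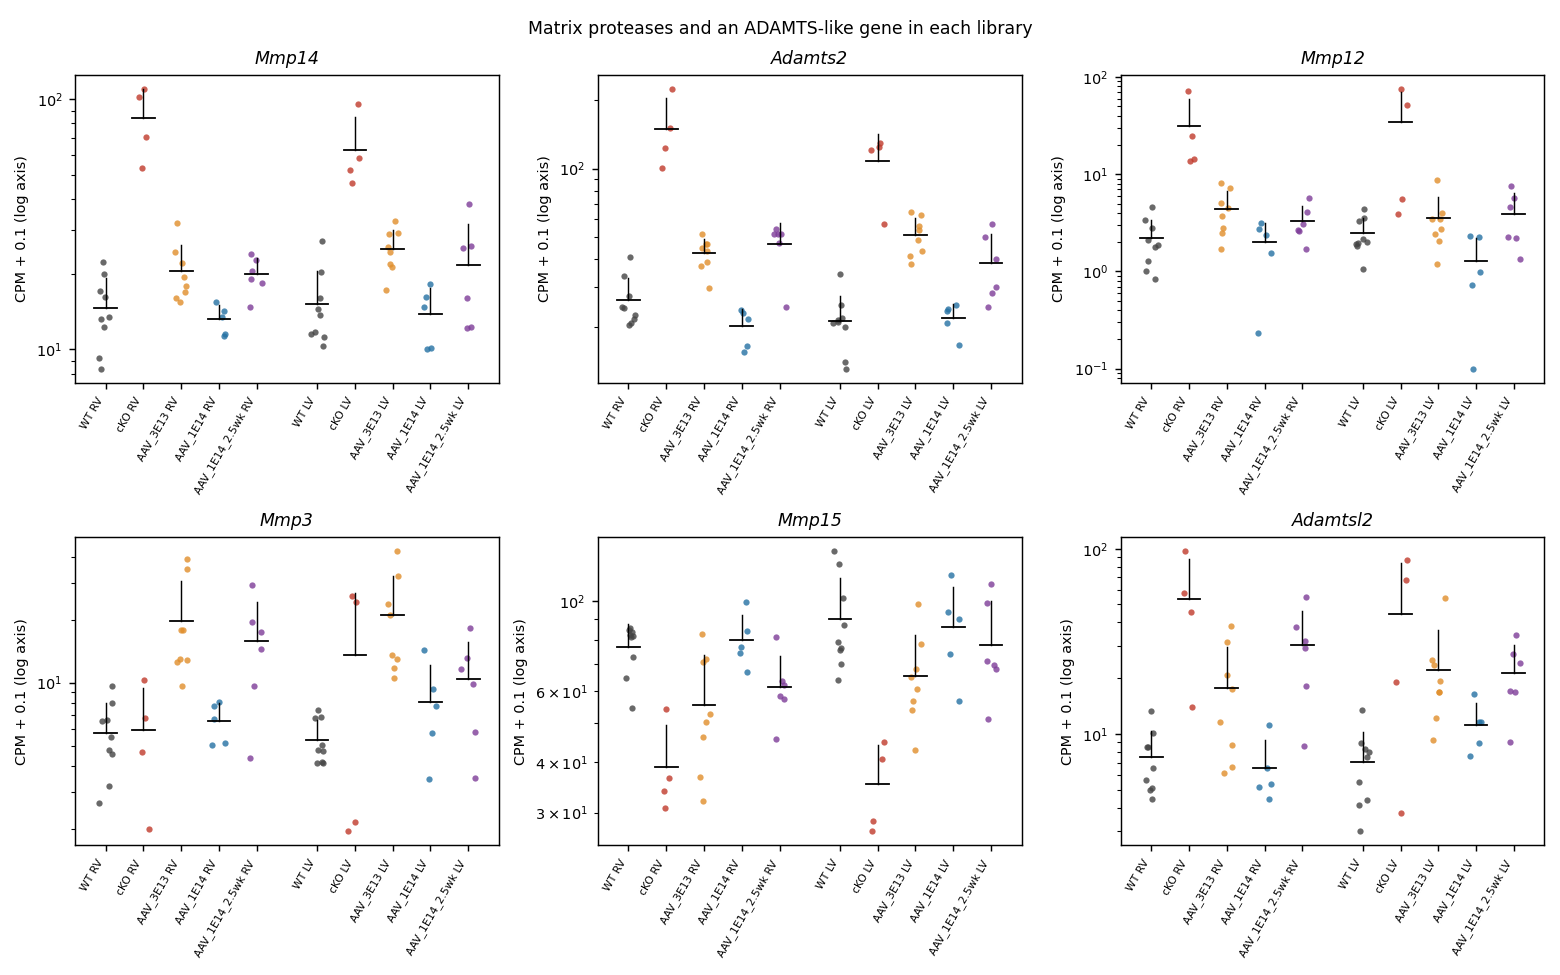
CPM + 0.1 of selected proteases in each library (points, log axis) by group and ventricle, where the horizontal bar is the mean and the line above it 1 SD. Mmp14 and Adamts2 in cKO stand above all WT libraries in both ventricles, while Mmp3 in cKO LV spans 1.84 to 25.8 CPM.

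The ADAMTS families differed. All 3 procollagen N-propeptidases were tested, and Adamts2, which removes the N-propeptide of fibrillar procollagens, rose most. WT RV libraries held 20.5 to 40.7 CPM (median 24.4) and cKO RV libraries 151, 123, 101 and 225 CPM, with a log2 fold change of 2.52 (SE 0.20, with adjusted p = 6.42e-07) in RV and 2.32 (SE 0.23, with adjusted p = 3.78e-06) in LV. Adamts14 rose in both ventricles, by 1.22 and 1.15, whereas Adamts3 was not called in either. Of the genes whose products cut cartilage oligomeric matrix protein, Adamts12 rose by 1.93 in RV (SE 0.27, with adjusted p = 5.66e-05) and 2.11 in LV (SE 0.24, with adjusted p = 8.35e-06), and Adamts7 was not called. Adamts10, which binds fibrillin microfibrils, went from 24.5 to 53.1 CPM in WT RV to 92.2, 127, 73.8 and 79.0 CPM in cKO RV, without overlap (log2 fold change 1.27, SE 0.21, with adjusted p = 0.000199). None of the 6 proteoglycan-cleaving ADAMTS genes tested was called in RV, while Adamts9 (log2 fold change 0.99, SE 0.15, with adjusted p = 6.97e-05) and Adamts8 (1.76) rose in LV. Of the 5 ADAMTS-like genes, Adamtsl2, which binds latent TGFβ-binding protein and fibrillin, rose by 2.86 in RV (SE 0.36, with adjusted p = 2.33e-05) and 2.65 in LV (SE 0.53, with adjusted p = 0.000876), and Adamtsl3 rose by 0.74 in LV.

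The 4 cKO hearts did not carry the same pattern, and the values here are from LV. The hearts cKO_2006 and cKO_3213 had the higher LV values of Timp1 and Mmp12 above, and also of Mmp3 (25.8 and 24.1 CPM), Mmp9 (30.4 and 14.2 CPM) and the neutrophil collagenase Mmp8 (17.8 and 11.3 CPM). The hearts cKO_2052 and cKO_3217 had 2.06 and 1.84 CPM of Mmp3, 1.30 and 1.08 CPM of Mmp9, and 0.649 and 0.649 CPM of Mmp8. For Adamtsl2 the order turned, with 19.0 and 3.64 CPM in the former and 67.7 and 87.2 CPM in the latter pair. Adamts10 followed it, with 44.5 and 29.2 CPM against 126 and 90.7 CPM. In RV, cKO_2006 and cKO_3213 also had the higher values of Timp1, Mmp12, Mmp3, Mmp9 and Mmp8, and the lower values of Adamtsl2. For Adamts10 the pairs did not separate in RV. The summed LV level of 5 neutrophil markers was 65.2, 16.1, 47.6 and 11.03 CPM in cKO_2006, cKO_2052, cKO_3213 and cKO_3217, and that of 5 macrophage markers 836, 200, 720 and 350 CPM. Of the neutrophil genes, Csf3r had a cKO LV mean of 24.5 CPM and Cxcr2 6.78 CPM. S100a8, S100a9 and Retnlg had 1.69, 1.67 and 0.324 CPM. With 4 animals the values of the hearts are single values, given without a test.

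Markers of several cell types moved with the cKO group. In RV, 5 of 6 activated fibroblast markers rose, with a summed level of 1371 to 2794 CPM in cKO against 166 to 274 CPM in WT, and 4 of 5 macrophage markers rose and 1 fell, with sums of 377 to 779 against 108 to 150 CPM. The neutrophil sum was 22.5 to 38.2 against 2.03 to 11.5 CPM. Of its genes only Csf3r was called, at a mean of 23.8 against 3.52 CPM. S100a8 and Cxcr2 were not called, and S100a9 and Retnlg were not tested. For cardiomyocytes 5 of 6 markers fell, with sums of 9182 to 28622 against 29828 to 41035 CPM. Adipocyte markers were at or near 0 (0 to 0.1001 CPM in cKO RV), with Adipoq and Plin1 at 0 in every cKO RV library. In bulk tissue a change in the number of cells of a type and a change of RNA per cell cannot be told apart, and the part of these markers in the differences of the members was not tested.

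Other genes of matrix turnover moved as well. Of 54 further genes tested from lists of MMP activators, ADAM sheddases, cathepsins, procollagen-processing enzymes and matrix substrates, 40 were higher and 1 lower in cKO RV, and 35 higher and 4 lower in cKO LV. By comparison, the whole set of tested genes had 22% called up and 20.3% called down for cKO against WT in RV. The LV shares were 23.6% up, 23% down. All 10 cathepsins and cystatins rose in RV, among them the lysosomal elastase cathepsin S (Ctss, log2 fold change 4.34, SE 0.26, with adjusted p = 4.83e-08). Of the ADAM sheddases, Adam8 rose by 5.43 and Adam12 by 3.61. Of 15 substrates 13 rose in each ventricle, led in RV by the collagen genes Col1a1 (4.96) and Col3a1 (4.13). Bsg, a surface inducer of MMPs, was the gene that fell in RV, by 0.85.

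With the lower dose, some of the members called in cKO were also called against WT, such as Timp1 and Adamts2. Mmp3 and Adamts7 were called in AAV_3E13 RV although neither was called in cKO RV. In AAV_3E13 RV, 36 members were tested, of which 7 were higher and 4 lower, against 11.8% and 10% of all genes. In AAV_3E13 LV, 20 of 33 were higher and 1 lower, against 19.9% and 19.2%. Timp1 lay at 2.96 to 26.6 CPM in RV (median 4.48), above all WT RV libraries, with a log2 fold change of 3.26 (SE 0.48, with adjusted p = 0.000346), and at 3.15 to 11.4 CPM in LV (median 5.99; 2.06, SE 0.33, with adjusted p = 8.65e-05). Mmp3 was at 9.54 to 38.8 CPM in RV (median 15.3) against 2.56 to 9.56 CPM in WT, so that the ranges met only at their ends. Its log2 fold change was 1.803 in RV (SE 0.30, with adjusted p = 0.000735) and 2.01 in LV (SE 0.27, with adjusted p = 1.38e-05). Adamts2 rose by 0.68 in RV (adjusted p = 0.00266) and by 1.26 in LV (adjusted p = 9.56e-06), Timp2 by 0.63 (adjusted p = 0.00151) and 0.61 (adjusted p = 3.8e-05), and Mmp2 by 0.65 and 0.92. Adamts7 fell in RV by 1.14 (SE 0.19, with adjusted p = 0.000661), from 24.8 to 60.01 CPM in WT (median 44.4) to 9.94 to 26.96 CPM (median 20.1), and Adamtsl4, Adamts17 and Mmp15 also fell there. Without WT_5819 the RV count was 10 in place of 11, and with the effective length measure as a covariate it was 2. The fibroblast marker sum was 1284 to 2543 CPM in AAV_3E13 RV against 635 to 1189 CPM in WT RV, with 5 of 6 fibroblast markers higher, and its part in these differences was not tested. The endothelial marker sum was 945 to 1247 CPM there against 1104 to 1523 CPM in WT, with 5 of 5 markers lower. In LV, 5 of 6 fibroblast, 3 of 5 activated fibroblast and 4 of 5 macrophage markers tested were higher than WT, and 6 of 6 cardiomyocyte markers were lower. The LV activated fibroblast sum was 308 to 760 CPM against 139 to 284 CPM in WT, and the cardiomyocyte sum 23456 to 32344 against 41283 to 47947 CPM, both without overlap.

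With the higher dose before tamoxifen, no tested member was called higher than WT in either ventricle. In AAV_1E14 RV, 7 of the 33 members tested were lower, against 14.1% of all genes. Of the called members Adamts10 was lowest relative to WT, at 15.3, 20.6, 14.6, 17.96 and 23.0 CPM against 24.5 to 53.1 CPM in WT, without overlap (log2 fold change -1.11, SE 0.20, with adjusted p = 0.00119). Adamts9, a proteoglycan-cleaving ADAMTS, fell by 0.93 (SE 0.21, with adjusted p = 0.0039) and Adamts7 by 0.80 (SE 0.20, with adjusted p = 0.00822). Adamts3 (-0.55), Adamts1 (-0.47), Mmp28 (-0.65) and Mmp19 (-0.96) also fell. The RV count was 4 without AAV_1E14_2034, 7 without WT_5819, 4 with the length covariate, and 2 by limma and by the unequal-variance test. All 5 endothelial markers were lower in AAV_1E14 RV. Of 6 cardiomyocyte markers 5 were higher there and 1, Tnnt2, was lower (log2 fold change -0.50). The part of these markers in the lower values was not tested. Timp1 was at 1.05, 0.420, 1.69, 0.532 and 1.23 CPM in RV and was not tested there because of its low counts. In LV, edgeR called 0 of 33 members, with 3 at an unadjusted p below 0.05, and DESeq2, limma and the unequal-variance test also called 0. Only 0.0075% of all genes were called in that comparison. Timp4 in LV was at 25.4, 32.5, 42.8, 85.7 and 69.2 CPM, beside the WT range of 13.2 to 42.8 CPM (log2 fold change 0.88, adjusted p = 0.928).

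**Figure D4:**
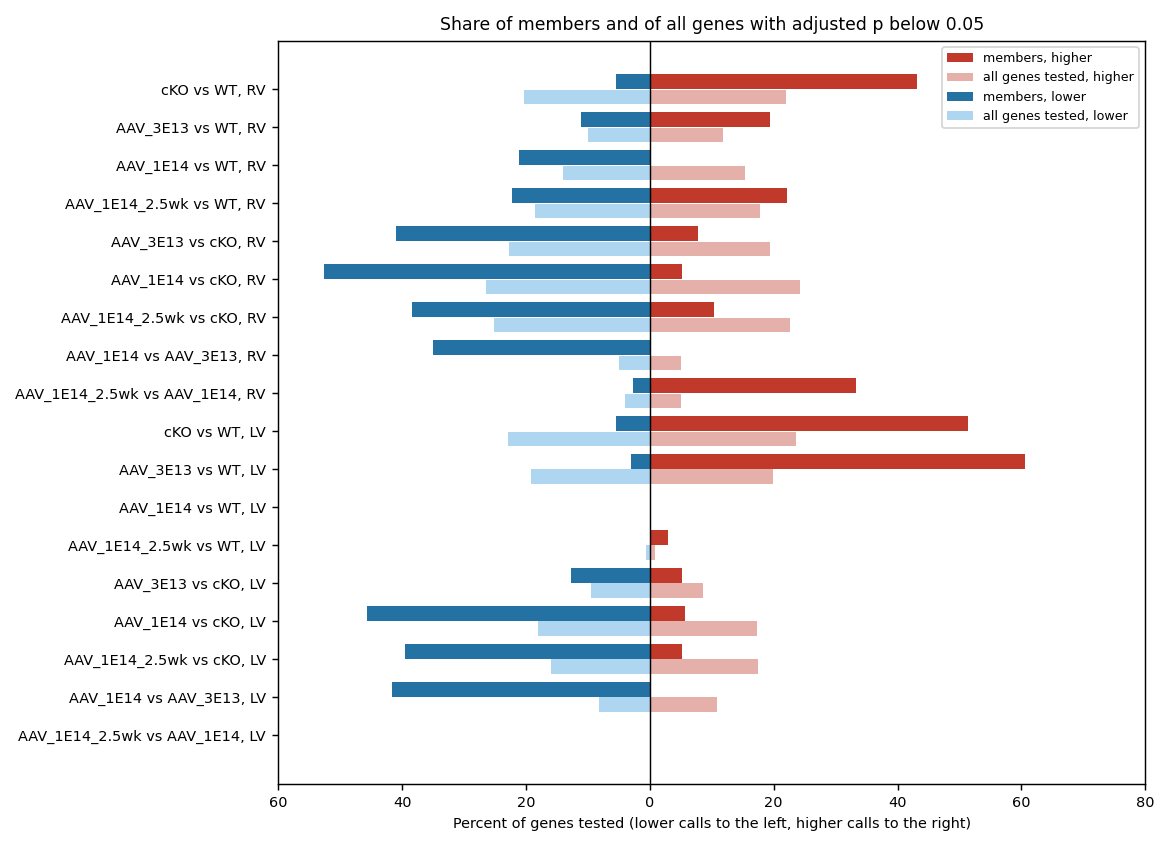
Percent of tested members called higher and lower in each comparison between groups, with lower calls to the left and higher calls to the right, beside the same percent over all genes tested. In cKO RV 43.2% of members were higher against 22% of all genes, and in AAV_1E14 RV 21.2% were lower against 14.1%.

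With the same dose given after tamoxifen, the number of calls was larger in RV than in LV, among the members as over all genes. In AAV_1E14_2.5wk RV, 8 of 36 members were higher and 8 lower, against 17.8% and 18.5% of all genes, and in LV 1 of 34 was higher, against 0.859% (1.49% in either direction). Timp1 was at 1.47 to 11.8 CPM in RV (median 7.64), above all WT RV libraries (log2 fold change 3.00, SE 0.39, with adjusted p = 3.94e-05), and at 0.871 to 11.04 CPM in LV (median 2.31), overlapping with WT (log2 fold change 1.51, adjusted p = 0.131). Adamtsl2 rose by 2.01 in RV (SE 0.32, with adjusted p = 0.000165) and was the single call in LV (1.63, SE 0.31, with adjusted p = 0.0195). Mmp2 and Timp2 each rose by 0.79 in RV, Adamts2 by 0.82 and Mmp3 by 1.47. Adamts7 was at 9.73 to 24.7 CPM in RV (median 12.4), below all 9 WT libraries (log2 fold change -1.65, SE 0.23, with adjusted p = 6.82e-05), and Adamts3 (-0.79), Timp4 (-1.02), Adamts14 (-0.97) and Adamts10 (-0.47) were among the members lower in RV. The RV count was 13 without AAV_1E14_2.5wk_5814 or without WT_5819, and the LV count was 2 without AAV_1E14_2.5wk_5814. With the effective length measure as a covariate the RV count was 1 in place of 16, the LV count was 0, and the RV value of Timp4 turned to 0.25 (adjusted p = 0.901). In RV the groups did not overlap in that measure, so the fit cannot divide its part from that of the group. The unequal-variance test gave 9 in RV and, like limma, 0 in LV. The fibroblast marker sum reached 3036 CPM in RV of this group (lowest 1140 CPM), with 4 of 6 markers higher than WT, and its part was not tested.

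Adamts10, Adamts14, Mmp19 and Mmp28 were the members called higher in cKO RV and lower than WT in RV of at least 1 vector group. Mmp28, epilysin, was at 11.2, 14.4, 6.94 and 16.0 CPM in cKO RV, where its call was lost without cKO_2006, cKO_2052 or cKO_3217, at 5.53 to 11.8 CPM in WT RV, and at 4.09, 5.19, 5.81, 4.26 and 5.62 CPM in AAV_1E14 RV. Mmp19 was at 2.64, 2.38, 1.94, 3.06 and 1.37 CPM in AAV_1E14 RV, 2.00 to 6.91 CPM in WT RV, and 29.997, 7.01, 14.4 and 14.98 CPM in cKO RV. These comparisons share the same 9 WT libraries.

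Relative to cKO, all vector groups had more members lower than higher, using the same 4 cKO libraries each time. In these comparisons vector treatment and time since induction cannot be told apart. In RV, AAV_3E13 had 3 higher and 16 lower of 39 tested, against 19.4% and 22.7% of all genes (42% in all), AAV_1E14 2 and 20 of 38, against 24.2% and 26.4% (50.6%), and AAV_1E14_2.5wk 4 and 15 of 39, against 22.6% and 25.2% (47.9%). In LV the counts were 2 and 5 of 39, against 8.58% and 9.45% of all genes (18%), 2 and 16 of 35, against 17.3% and 18.1% (35.4%), and 2 and 15 of 38, against 17.4% and 15.9% (33.3%). The unequal-variance test called 6, 11 and 6 members in RV and 1 each in LV. Limma called 11 in AAV_3E13 RV, 10 in AAV_1E14 LV and 7 in AAV_1E14_2.5wk LV. Without AAV_1E14_2.5wk_5814 the counts of its group were 16 in RV and 12 in LV. Timp1 had a log2 fold change of -4.80 in AAV_1E14 RV (SE 0.44, with adjusted p = 2.1e-05) and of -5.03 in AAV_1E14 LV (SE 0.81, with adjusted p = 0.00151). In AAV_3E13 the RV log2 fold change was -1.76 (SE 0.54, with adjusted p = 0.0182), a call lost without cKO_2006 (adjusted p = 0.0605), and in AAV_1E14_2.5wk it was -1.99 (SE 0.44, with adjusted p = 0.00319). With the length covariate the comparison of AAV_1E14_2.5wk with cKO had 0 called members in RV, and there Timp1 turned to 0.14 (adjusted p = 0.991) and Timp4 to -0.11 (adjusted p = 0.989). The RV libraries of these groups did not overlap in the length measure, so that fit cannot divide its part from that of the group. Without the covariate, Timp4 was higher than cKO in RV of all vector groups, with log2 fold changes of 1.78, 2.52 and 1.37 in AAV_3E13, AAV_1E14 and AAV_1E14_2.5wk. Mmp14 was lower in RV of each, at -2.03, -2.64 and -2.06, and Adamts2 at -1.83, -2.87 and -1.67. Mmp3 was higher than cKO in RV of AAV_3E13 (1.75, adjusted p = 0.00845) and AAV_1E14_2.5wk (1.46, adjusted p = 0.0369).

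Between the 2 doses given before tamoxifen, called members were lower at the higher dose in every case. AAV_1E14 against AAV_3E13 gave 13 lower and 0 higher of 37 in RV, against 4.95% of all genes lower and 5.02% higher (9.97%), and 15 lower and 0 higher of 36 in LV, against 8.26% lower and 10.8% higher (19%). Adamts2 differed by a log2 fold change of -1.10 in RV (SE 0.15, with adjusted p = 0.00131) and -1.22 in LV (SE 0.15, with adjusted p = 0.000289). Timp1 differed by -3.10 (SE 0.65, with adjusted p = 0.00915) and -2.09 (SE 0.33, with adjusted p = 0.00101), Mmp2 by -0.85 and -0.80, Timp2 by -0.52 and -0.62, and Mmp3 by -1.63 and -1.41. The RV count was 7 without AAV_1E14_2034 or AAV_1E14_5822. Limma called 7 in RV and 9 in LV, and the unequal-variance test 5 and 8.

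Between the 2 times of dosing, members were called in RV by edgeR, and the number depended on the test. AAV_1E14_2.5wk against AAV_1E14 gave 12 higher and 1 lower of 36 in RV, against 4.97% of all genes higher and 3.95% lower (8.93%). Adamts2 (1.23, SE 0.20, with adjusted p = 0.00555), Timp1 (2.85, SE 0.50, with adjusted p = 0.00745), Adamtsl2 (2.23, SE 0.41, with adjusted p = 0.00863), Mmp2 (1.00) and Adamts8 (1.87) led by p, and Timp4 was the member that was lower (-1.13, SE 0.30, with adjusted p = 0.0369). The RV count was 6 without AAV_1E14_2.5wk_5814, 7 without AAV_1E14_2034 or AAV_1E14_5726, and 8 without AAV_1E14_5822. Limma called 2 members in RV, and the unequal-variance test and edgeR with the length covariate called 0. These RV groups did not overlap in the length measure, so the covariate fit cannot divide its part from that of the group. In LV, 0 of 35 members were called by edgeR, DESeq2, limma or the unequal-variance test, with 7 at an unadjusted p below 0.05, and 0% of all genes were called. The member count in LV was also 0 without AAV_1E14_2.5wk_5814. Whether the difference between the times of dosing itself differed between ventricles was not tested.

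The ventricles themselves differed in a small number of members. In WT, 7 of 32 members were higher in RV than in LV and none lower, against 12.3% of all genes higher. Adamts7 was at 24.8 to 60.01 CPM in RV and 16.7 to 38.5 CPM in LV (log2 fold change 0.79, SE 0.17, with adjusted p = 0.00203), and was higher in RV in 9 of 9 animals. Mmp9, gelatinase B, was also higher in RV in 9 of 9 animals (1.12, SE 0.25, with adjusted p = 0.00276), as was Adamts10 (0.70, SE 0.18, with adjusted p = 0.00738), and Adamts17, Adamts3, Adamtsl4 and Adamts12 were called too. Without WT_5819 the count was 6, with the length covariate 3, and by limma and by the unequal-variance test 2. In cKO, edgeR called 0 of 39 members, with 0 at an unadjusted p below 0.05. DESeq2, limma and the unequal-variance test also called 0. The edgeR test did not pair the ventricles of an animal. Within cKO animals, Adamts8 was lower in RV in 4 of 4 (mean log2 difference -0.60, SD 0.18). Mmp23 was higher in 4 of 4 (0.69, SD 0.26), both given without a test. In AAV_1E14_2.5wk the same tools called 0 of 36, with 9 at an unadjusted p below 0.05 (0 called without AAV_1E14_2.5wk_5814). In AAV_3E13, 5 of 35 were lower in RV than in LV, against 9.49% of all genes, namely Adamtsl5 (-0.59), Adamts9 (-0.61), Adamts10 (-0.84), Mmp28 (-0.70) and Adamts7 (-0.73). In AAV_1E14, Adamts10 was lower in RV (-0.63, SE 0.16, with adjusted p = 0.0491) as the single call of 33, against 1.54% of all genes lower. That count was 0 with RLE factors, without a count minimum, with mitochondrial genes kept, with length offsets or covariate, in one fit of all 64 libraries, by limma and by the unequal-variance test, 4 by DESeq2, and 5 with the animal as a block.

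The difference from WT was then compared between the ventricles in an interaction term. For cKO, 0 of 39 members were called by edgeR, DESeq2 or limma, with 2 at an unadjusted p below 0.05. For AAV_3E13, 10 of 37 had a more negative difference in RV than in LV and none a more positive one, against 18.1% of all genes. Adamts10 had an interaction of -1.53 (SE 0.28, with adjusted p = 7.41e-05) and was above its own LV in RV in 9 of 9 WT animals but in 1 of 8 AAV_3E13 animals. Adamts7 had -1.50 (SE 0.28, with adjusted p = 7.81e-05), with 9 of 9 WT and 1 of 8 AAV_3E13 animals higher in RV, and Mmp28 had -1.25 (SE 0.29, with adjusted p = 0.00077), with 9 of 9 and 0 of 8. For AAV_1E14, 5 of 37 were called (8.61% of all genes in that direction), again led by Adamts10 (-1.32, SE 0.28, with adjusted p = 0.00171) and Adamts7 (-1.14, SE 0.27, with adjusted p = 0.00402), and 10 with the animal as a block. For AAV_1E14_2.5wk, Adamts7 (-1.56, SE 0.31, with adjusted p = 0.000811) and Adamts10 (-0.92, SE 0.27, with adjusted p = 0.0183) were called of 37 (7.72% of all genes), and 6 members with the block. Limma gave 4, 3 and 1 in these groups, and the length covariate 6 for AAV_3E13 and 0 for AAV_1E14_2.5wk. Without WT_5819 the interaction counts were 0 for cKO and 9, 5 and 3 for the vector groups, and 3 for AAV_1E14_2.5wk without AAV_1E14_2.5wk_5814. In RV of each of the 3 vector groups 5 of 5 endothelial markers were lower than WT, whereas in AAV_3E13 LV 5 of 5 were higher, and their part in these interactions was not tested.

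**Figure D5:**
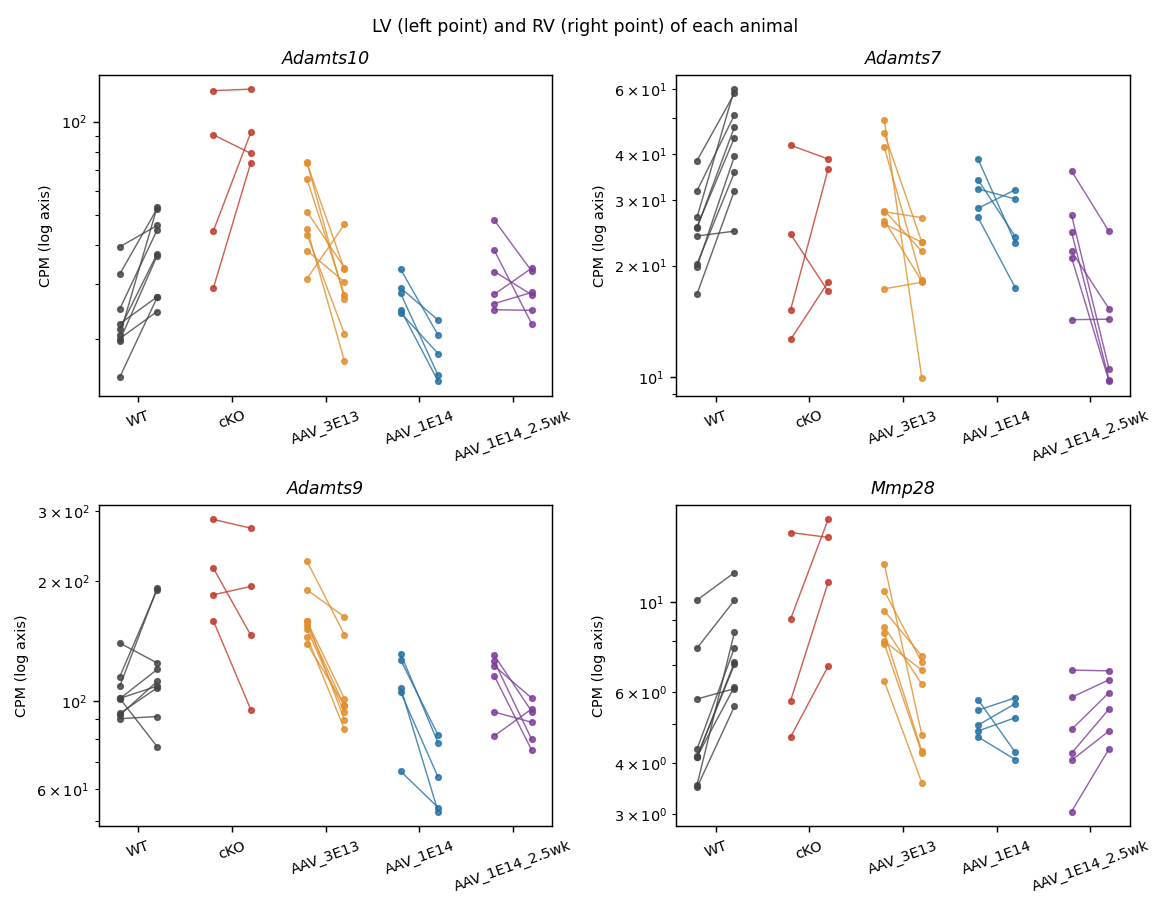
CPM (log axis) in LV (left point) and RV (right point) of each animal, joined by a line, by group, for Adamts10, Adamts7, Adamts9 and Mmp28. In WT all 9 lines rise from LV to RV for Adamts10 and Adamts7, and in AAV_3E13 1 of 8 does for each.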

How the data were processed

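Total RNA from both ventricles of each animal was sequenced as paired-end reads. The labels name polyA RNA as the molecule while the study's methods name a ribosomal depletion kit, so the selection of RNA is not settled here. According to the submitters' processing notes the authors used Salmon 1.8.0 and GRCm39, and summed transcripts to genes. The deposited tables hold estimated counts per gene, TPM values that the authors computed from them (normalised for effective length and depth), and the authors' effective length per gene and library in bases. Every column was mapped to a sample by its name.

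The 37 mitochondrially encoded genes were left out, the expected counts were rounded to whole numbers (a change of at most 5.24e-04% of a library), and a row without a name (at most 0.00136%) was dropped. Comparisons were fitted with edgeR 4.0.16 in R 4.3.3 (TMM factors, filterByExpr, quasi-likelihood F test, Benjamini-Hochberg adjustment over all genes tested, threshold 0.05) on the libraries of the groups compared, per ventricle, and SE was the log2 fold change divided by the square root of F. Ventricles were compared within a group, and an interaction term compared the differences from WT. The 64 libraries come from 32 animals, and within a ventricle each library is a separate animal. TPM was renormalised without mitochondrial genes.

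The members and all gene lists were chosen with earlier results of these data known. Full statistics are given for Timp1 to Timp4, for up to 12 members with the smallest p among those called in cKO against WT, for up to 5 in each other comparison, and for members higher in one and lower in another comparison with WT. Others are named with values for context.

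RV and LV libraries with the same number come from the same animal by their labels. The median correlation of their deviations from the group means was 0.155 over 32 animals and 15313 genes (above 0.1 in 22). Alternatives were DESeq2 1.42.0, limma 3.58.1 on log2(TPM + 0.1), an unequal-variance test on log2(TPM + 1) among genes detected in at least 10% of libraries, RLE factors, no count minimum, effective lengths as offsets or as a covariate, all 64 libraries in one fit, mitochondrial genes kept, the animal as a block, and single libraries left out. For some of the comparisons, edgeR, DESeq2, limma and the unequal-variance test were also run on simulated counts with a fixed dispersion. This included edgeR with RLE factors, without a count minimum and with the animal as a block. The length offsets and covariate, the fit of all 64 libraries and the fit with mitochondrial genes kept were not simulated.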

Additional observations from a re-analysis of the deposited data

Results flagged for a closer look

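Of 140 groups of libraries examined over 14 members, 6 held a library far from the others of its group, and chance alone flags about 1 in 20 groups. Timp3 in AAV_1E14_2.5wk RV was at 1689 CPM in AAV_1E14_2.5wk_5806, where the nearest other library was at 967 CPM. Adamts2 was at 24.58 CPM in RV of AAV_1E14_2.5wk_5801 (nearest 46.8 CPM) and at 56.8 CPM in LV of cKO_3213 (nearest 121 CPM). Mmp12 was at 8.706 CPM in LV of AAV_3E13_5768 (nearest 3.86 CPM), Adamtsl2 at 54.2 CPM in LV of AAV_3E13_2033 (nearest 24.9 CPM), and Adamts9 at 139.7 CPM in LV of WT_2027 (nearest 115 CPM).

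Of the members called by an interaction term, the 7 with full statistics are listed here, as RV minus LV on the log2 scale. For AAV_3E13 those with the smallest p were Adamts10 (-1.531), Adamts7 (-1.5), Mmp28 (-1.253), Adamtsl4 (-0.8746) and Adamts9 (-0.8559). Adamts17 (-1.801), Adamts14 (-1.282), Mmp17 (-0.9968), Adamts3 (-0.5781) and Adamts2 (-0.5654) were called for AAV_3E13 as well. For AAV_1E14 they were Adamts10 (-1.323), Mmp17 (-1.29), Adamts7 (-1.137), Adamts9 (-0.9677) and Adamts3 (-0.6977), and for AAV_1E14_2.5wk Adamts7 (-1.564) and Adamts10 (-0.9213). WT RV and LV libraries enter each of them, and the same WT animals were higher in RV for Adamts10 and Adamts7, as given above.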

How the results depend on the processing

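Of 1769 repeats of the values of named members, 1547 kept direction and call, 219 kept direction and lost the call, and 3 turned direction, all 3 with effective length as a covariate in comparisons of AAV_1E14_2.5wk RV (Timp4 against WT 0.2451, Timp1 against cKO 0.1391, Timp4 against cKO -0.1115). In those comparisons the groups did not overlap in the length measure, so the covariate fit cannot divide its part from that of the group. Of 355 repeats of the counts of called members, 282 stayed within 1.5 times. The others follow as counts, and the causes were not tested. With the length covariate, counts were AAV_3E13 against WT RV 2, AAV_1E14 against WT RV 4, AAV_1E14_2.5wk against WT RV 1 and LV 0, against cKO RV 0 and against AAV_1E14 RV 0, RV against LV 3 in WT and 0 in AAV_1E14, and interactions 1 for cKO, 6 for AAV_3E13 and 0 for AAV_1E14_2.5wk. With effective lengths as offsets RV against LV in AAV_1E14 gave 0 and the AAV_3E13 interaction 6. The unequal-variance test gave, in RV, cKO against WT 10, AAV_1E14 against WT 2, AAV_1E14_2.5wk against WT 9, AAV_3E13, AAV_1E14 and AAV_1E14_2.5wk against cKO 6, 11 and 6, AAV_1E14 against AAV_3E13 5 and AAV_1E14_2.5wk against AAV_1E14 0, in LV, cKO against WT 3, AAV_1E14_2.5wk against WT 0, the 3 vector groups against cKO 1 each and AAV_1E14 against AAV_3E13 8, and for RV against LV 2 in WT, 1 in AAV_3E13 and 0 in AAV_1E14. Limma gave AAV_1E14 against WT RV 2, AAV_3E13 against cKO RV 11, AAV_1E14 against AAV_3E13 RV 7 and LV 9, AAV_1E14_2.5wk against AAV_1E14 RV 2 and against WT LV 0, AAV_1E14 and AAV_1E14_2.5wk against cKO LV 10 and 7, RV against LV 2 in WT, 3 in AAV_3E13 and 0 in AAV_1E14, and interactions 4, 3 and 1 for AAV_3E13, AAV_1E14 and AAV_1E14_2.5wk. DESeq2 gave AAV_1E14_2.5wk against WT LV 4, RV against LV in AAV_1E14 4 and the AAV_1E14_2.5wk interaction 5. One fit of all 64 libraries gave AAV_1E14_2.5wk against AAV_1E14 RV 8 and against WT LV 2, AAV_3E13 against cKO LV 13, RV against LV in AAV_1E14 0 and the AAV_1E14 interaction 3. RLE factors, no count minimum and mitochondrial genes kept each gave 0 for RV against LV in AAV_1E14, and no count minimum 3 for the AAV_1E14 interaction. With the animal as a block, RV against LV in AAV_1E14 gave 5 in place of 1, and the AAV_1E14 and AAV_1E14_2.5wk interactions 10 in place of 5 and 6 in place of 2, and no other count moved by over 1.5 times.

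Leaving out 1 library at a time gave, in RV, 15 to 19 for cKO against WT (18 with all libraries), 4 to 8 for AAV_1E14 against WT (7), 16 to 18 (19), 19 to 23 (22) and 15 to 18 (19) for AAV_3E13, AAV_1E14 and AAV_1E14_2.5wk against cKO, 7 to 12 for AAV_1E14 against AAV_3E13 (13), and 6 to 12 for AAV_1E14_2.5wk against AAV_1E14 (13). In LV it gave 16 to 20 for cKO against WT (21), 6 to 11 (7; 11 without cKO_3217), 14 to 18 (18) and 12 to 17 (17) for the same groups against cKO, 12 to 18 for AAV_1E14 against AAV_3E13 (15), 2 for AAV_1E14_2.5wk against WT (1), and 0 to 2 for RV against LV in AAV_1E14 (1). The AAV_1E14 interaction gave 3 to 5 (5; 3 without AAV_1E14_5726). Groups of 4 and 5 animals limit what could be called among members near the count minimum.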

Other observations

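The ADAMTS proteases summed over their transcripts gave 149 ± 26.5 TPM in WT RV (SD, n = 9) and 120 ± 18.4 TPM in WT LV. In cKO the sums were 202 ± 27.5 TPM in RV and 220 ± 34.1 TPM in LV (n = 4). In AAV_1E14 they were 99.7 ± 17.0 TPM in RV, ranging from 81.9 to 119 TPM against 117 to 208 TPM in WT RV, and 127 ± 27.5 TPM in LV (n = 5). Adamts15, another proteoglycan-cleaving ADAMTS, was among the members higher in AAV_3E13 than in cKO LV, with a log2 fold change of 1.05 (SE 0.31, with adjusted p = 0.0319), and it was not named in the comparisons above. These sums were not tested.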
